A study of Homo sapiens with 12 samples.

Results

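The E2F transcription factors E2F1 to E2F8 and the E cyclins CCNE1 and CCNE2 were taken from the count table by their gene symbols. They were 10 of the 26481 genes with a complete entry, and all 10 were among the 14164 genes that passed the filter on low counts and were tested. By their classical roles they form 3 classes, with 3 activating factors (E2F1, E2F2 and E2F3), 5 repressive factors (E2F4, E2F5, E2F6, E2F7 and E2F8) and 2 E cyclins. RNA was sequenced from barcoded HEL cells, a human line established from an erythroleukemia (a form of AML), in which every founder cell and its progeny (a BC-clone) carry a shared DNA barcode. Non-treated cells (NT, n = 2) were grown with DMSO and no drug. The 3 other groups were relapses, the populations that grew back over about 30 days from cells that had survived 72 h of treatment with 1.8 µM doxorubicin (Doxo, n = 3), with the same dose of doxorubicin plus 6 µM cytarabine (Doxo+Cyta, n = 3) or with both drugs plus 0.1 µM decitabine, an inhibitor of DNA methyltransferases (Doxo+Cyta+DAC, n = 4). The RNA therefore comes from regrown cells and not from cells under drug, all groups derive from the same barcoded line, and relapses after decitabine alone were not analysed here. The values are from bulk RNA, in which fewer cells of a type and less RNA per cell cannot be told apart.

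E2F factors control the passage from G1 into S phase. In resting cells E2F4 and E2F5 sit on cell cycle promoters with the pocket proteins p107 and p130 (RBL1 and RBL2), while RB binds and restrains E2F1, E2F2 and E2F3. When cyclin E and its kinase CDK2 phosphorylate the pocket proteins, the activating factors are released and switch on the genes of DNA replication, and among their targets are E2F1 itself and the E cyclins. E2F6 represses through polycomb partners without pocket proteins, and E2F7 and E2F8 are atypical repressors that are themselves E2F targets and act late in S phase.

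Total counts lay between 12763582 and 19106235 per library. Libraries Doxo 4 and Doxo+Cyta 20 stood apart from their groups. The mean chi-square per gene between their counts and those of their group was 27.3 to 29.7 for Doxo 4 and 46.7 to 48.5 for Doxo+Cyta 20, against 3.1 between Doxo 5 and Doxo 6 and 7.33 between Doxo+Cyta 19 and Doxo+Cyta 22. Results that rest on them are given with and without both. The lineage of HEL cells was visible in every library, since all 10 erythroid and megakaryocytic markers (among them GATA1, HBG1 and ITGA2B) passed the filter, with a summed level of 8025 to 9286 CPM in NT, 9165 to 10060 CPM in Doxo, 9790 to 10700 CPM in Doxo+Cyta and 6101 to 8276 CPM in Doxo+Cyta+DAC. CPM is a gene's count as a rate per library, with TMM scaling. Of these 10 markers, 5 were lower in Doxo+Cyta+DAC than in NT, 7 than in Doxo and 9 than in Doxo+Cyta, and their part in the E2F results was not tested. Of all tested genes, 23.7%, 30.4% and 30.5% were lower in the same comparisons. Defining markers of other blood lineages and of fibroblasts were at or near 0, with at most 2 counts of CD3D, CD3E or CD3G, at most 1 count of PAX5 and no count of MS4A1 or LUM in any library. The T cell list (summed level of 26.6 to 27.4 CPM in NT, 46.8 to 55.7 CPM in Doxo, 35.6 to 51.8 CPM in Doxo+Cyta and 20.0 to 43.7 CPM in Doxo+Cyta+DAC) was nearly all CD2. The B cell list was nearly all CD79A, at 0.963 to 1.73 CPM in Doxo+Cyta+DAC and 2.33 to 6.07 CPM in the other groups, and the fibroblast list stayed at or below 1.47 CPM.

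The promoters of 7 of the 10 genes (E2F1, E2F2, E2F3, E2F4, E2F6, E2F7 and CCNE1) were in the RefSeq table for GRCh38.p14, as windows from 250 bases before to 50 bases after the start site. They were searched on both strands for 4 E2F core motifs, TTCCCGC or TTGGCGC or TTCGCGC or TTGCCGC, and no matches overlapped in the sequences shown. At least 1 core was found in 5 of the 7 promoters, against 13.1% of all 27305 promoters in the table and 20.2% of the 10261 promoters of tested genes. TTGGCGC, the core that 3.12% of all promoters and 4.83% of those of tested genes hold, was present in E2F1, E2F2, E2F3 and E2F7. The stretches with these matches are shown because all 3 activating factors carry the core within 60 bases upstream of the start site, whereas in E2F7 the cores lie farther out. Capitals mark the core matches, read along the strand of the gene. On the opposite strand the cores read GCGGCAA or GCGGGAA or GCGCCAA. The stretches are, for E2F1, chr20:33686366-33686465 (minus strand), for E2F2, chr1:23531214-23531313 (minus strand), for E2F3, chr6:20401799-20401898 (plus strand), and for E2F7, chr12:77065660-77065759 (minus strand).
E2F1: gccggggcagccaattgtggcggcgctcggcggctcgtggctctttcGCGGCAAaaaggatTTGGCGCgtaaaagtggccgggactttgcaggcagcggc
E2F2: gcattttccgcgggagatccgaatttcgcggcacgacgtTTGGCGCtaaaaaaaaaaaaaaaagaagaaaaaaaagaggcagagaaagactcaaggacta
E2F3: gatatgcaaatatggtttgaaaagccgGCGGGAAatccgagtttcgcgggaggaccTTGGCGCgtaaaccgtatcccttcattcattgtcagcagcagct
E2F7: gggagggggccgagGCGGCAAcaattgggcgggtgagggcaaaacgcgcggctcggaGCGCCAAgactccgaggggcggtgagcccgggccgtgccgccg

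Counted from the start site, the cores of E2F1 lie at -33 to -27 and -19 to -13, that of E2F2 at -41 to -35, those of E2F3 at -53 to -47 and -24 to -18, and those of E2F7 at -176 to -170 and -133 to -127. E2F6 holds a core past its start site, at 14 to 20. Matches at 2 or more places, as in E2F1, E2F3 and E2F7, occur in 1.81% of all promoters and 3.09% of those of tested genes. No core was found in the windows of E2F4 and CCNE1. E2F3 was the only one of the 7 with TTTGAA, the CHR motif of late cell cycle genes. It is held by 15.4% of all promoters and 9.79% of those of tested genes. These are letters in a window, and no binding was measured.

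Per kilobase of exon, E2F4 and E2F1 had the highest means of the 10 genes in every group. In NT the levels in CPM per kb were 33.4 for E2F4, 29.2 for E2F1, 14.3 for E2F6, 11.6 for E2F3, 9.93 for E2F2, 5.36 for E2F5, 5.22 for CCNE2, 4.08 for CCNE1, 2.93 for E2F8 and 1.98 for E2F7, and the values of no neighbours in this order overlapped between the 2 libraries. In Doxo+Cyta+DAC relapses E2F1 came first with 52.1 CPM per kb, overlapping with E2F4 at 51.0, and E2F2 came next with 25.97, overlapping with E2F6 at 22.4. At the low end E2F5, ahead of both E cyclins in NT, came after CCNE2 (10.9), CCNE1 (8.44) and E2F8 (6.46) at 6.17 CPM per kb, although its range overlapped with those of CCNE1 and E2F8. E2F7 was last in every group. Reads were aligned without splicing, so levels per length of genes with many short exons may be too low.

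**Figure D1:**
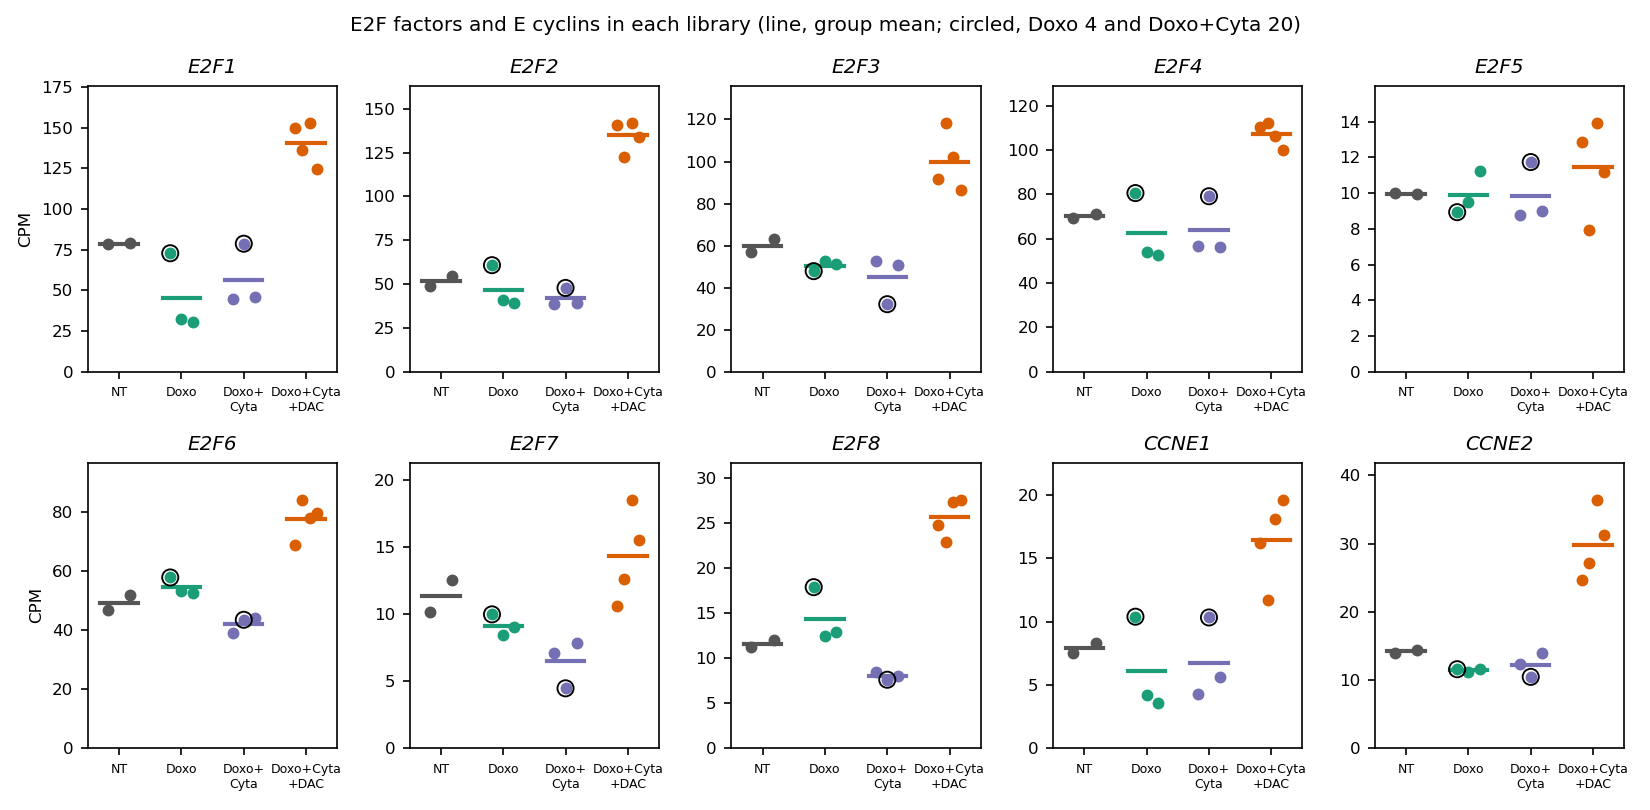
CPM (vertical axis, from 0) of each of the 10 genes in the 12 libraries, by group, with the group mean as a line and Doxo 4 and Doxo+Cyta 20 circled. The 4 Doxo+Cyta+DAC libraries lie above the libraries of every other group for 8 genes, and E2F5 and E2F7 are the exceptions.

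The comparison of Doxo+Cyta+DAC relapses with the other groups asks whether the E2F and cyclin E genes differ in relapses formed when decitabine was added. They were higher in Doxo+Cyta+DAC, and activating factors, repressive factors and E cyclins all took part. Relative to NT, 8 of the 10 genes rose at an adjusted p under 0.05 (edgeR), all but E2F5 and E2F7, against 24.9% of the tested genes that were higher and 23.7% that were lower. Relative to Doxo, 9 of 10 rose, all but E2F5, against 29.1% of tested genes higher and 30.4% lower. The same 9 genes rose relative to Doxo+Cyta, where 29.8% of tested genes were higher and 30.5% lower. E2F1, E2F2, CCNE1 and CCNE2 are genes that the study itself named from these samples, so their direction is not independent evidence. The libraries of the 2 groups did not overlap for the same 8, 9 and 9 genes, where 34.2%, 29.7% and 29.0% of the tested genes had no overlap in the higher direction relative to NT, Doxo and Doxo+Cyta. The 3 comparisons share the Doxo+Cyta+DAC libraries. The count relative to NT was 4 of 10 without NT 1 (E2F1, E2F3, E2F4 and CCNE1 lost the call) and 5 of 10 without NT 2, when 4461 and 4591 genes in all were called against 6893 with all libraries, and 0 of 10 with the thresholds of the study's methods (an adjusted p under 0.05 and a fold change beyond 1 on the natural log scale), which left 3 of 10 relative to Doxo and 2 of 10 relative to Doxo+Cyta. Without Doxo 4 and Doxo+Cyta 20 the counts were 8, 9 and 9 of 10, with 8539 genes in all called relative to NT. Neither library is in the comparison with NT, which changes only through the shared fit.

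E2F2 (chr1:23506428-23531220), an activating factor prominent in erythroid cells, had the largest and steadiest change among the activating factors relative to NT. Its level was 48.7 and 54.4 CPM in NT 1 and 2, 60.8, 40.9 and 39.1 CPM in Doxo 4, 5 and 6, 38.7, 47.8 and 39.5 CPM in Doxo+Cyta 19, 20 and 22, and 141, 123, 142 and 134 CPM in Doxo+Cyta+DAC 30 to 33. The lowest of the last 4, 123 CPM, was far above the highest of the others, the 60.8 CPM of Doxo 4. The log2 fold change was 1.39 relative to NT (SE 0.18, adjusted p = 3.52e-05, edgeR), 1.53 relative to Doxo (SE 0.15) and 1.68 relative to Doxo+Cyta (SE 0.15). An exon of E2F2 overlaps the RNA gene LOC101928163, and fragments on that stretch were left out of the counts.

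E2F1 (chr20:33675486-33686404), the factor most closely tied to both S phase entry and apoptosis, was at 78.3 and 79.2 CPM in NT, 72.8, 32.6 and 30.9 CPM in Doxo 4, 5 and 6, 44.6, 78.7 and 45.8 CPM in Doxo+Cyta 19, 20 and 22, and 150, 136, 153 and 124 CPM in Doxo+Cyta+DAC. All 4 Doxo+Cyta+DAC libraries were above the others, and of the chemotherapy relapses Doxo+Cyta 20 lay between the NT libraries, Doxo 4 somewhat below them and the other 4 at 45.8 CPM or lower. The rise was 0.84 on the log2 scale relative to NT (SE 0.31, adjusted p = 0.0355), 1.63 relative to Doxo (SE 0.28, adjusted p = 0.000178) and 1.32 relative to Doxo+Cyta (SE 0.27, adjusted p = 0.000806). Relative to NT the call was lost when NT 1 (adjusted p = 0.156), NT 2 (0.145), Doxo+Cyta+DAC 30 (0.0647) or Doxo+Cyta+DAC 32 (0.0669) was left out, with log2 fold changes of 0.80 to 0.84. Without Doxo 4 and Doxo+Cyta 20 the rise relative to NT was 0.81 with an adjusted p of 5.57e-06. Neither library is in this comparison. Leaving them out acts on it through the fit that all groups share, so this is no added support for the rise.

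E2F3 (chr6:20401906-20493714), the third activating factor, was at 56.8 and 63.1 CPM in NT, 47.9, 52.6 and 51.1 CPM in Doxo, 52.7, 32.2 and 50.7 CPM in Doxo+Cyta and 91.8, 118, 102 and 86.6 CPM in Doxo+Cyta+DAC. The groups with and without decitabine did not overlap, and Doxo+Cyta 20 was the lowest library. E2F3 rose by a log2 fold change of 0.73 relative to NT (SE 0.18, adjusted p = 0.00459), 0.98 relative to Doxo and 1.14 relative to Doxo+Cyta, and the call relative to NT was lost without NT 1 (0.66, adjusted p = 0.063).

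**Figure D2:**
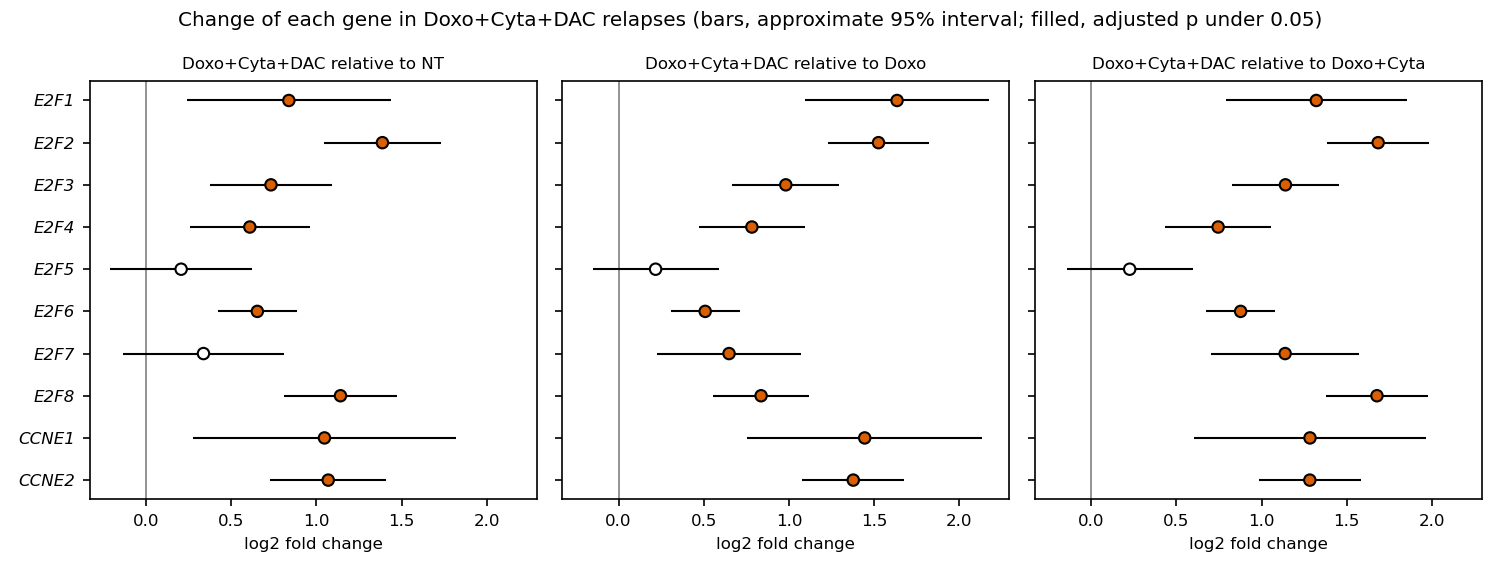
Log2 fold change (horizontal axis) of each gene in Doxo+Cyta+DAC relapses relative to NT, Doxo and Doxo+Cyta, with approximate 95% intervals from the fit and filled points for an adjusted p under 0.05. E2F2 lies at 1.39, 1.53 and 1.68, and the intervals of E2F5 include 0 in all 3 comparisons.

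Among the repressive factors, E2F8 (chr11:19224063-19241655), an atypical factor that acts without a dimerization partner, changed most. It was at 11.2 and 12.03 CPM in NT, 17.9, 12.4 and 12.9 CPM in Doxo, 8.41, 7.61 and 8.01 CPM in Doxo+Cyta, and 24.8, 22.8, 27.3 and 27.6 CPM in Doxo+Cyta+DAC. The 4 groups did not overlap, in the order Doxo+Cyta, NT, Doxo and Doxo+Cyta+DAC. E2F8 rose by a log2 fold change of 1.14 relative to NT (SE 0.17, adjusted p = 0.000121), 0.84 relative to Doxo (SE 0.15, adjusted p = 0.000228) and 1.68 relative to Doxo+Cyta (SE 0.15, adjusted p = 8.05e-07).

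E2F7 (chr12:77021246-77065580), the other atypical factor, had the lowest level per kb of exon. It was at 10.2 and 12.5 CPM in NT, 9.98, 8.44 and 9.03 CPM in Doxo, 7.11, 4.47 and 7.88 CPM in Doxo+Cyta and 10.6, 12.6, 18.5 and 15.5 CPM in Doxo+Cyta+DAC, with counts from 67 to 353 per library. The Doxo+Cyta+DAC libraries overlapped NT but lay above both other relapse groups. Relative to NT the log2 fold change of 0.34 did not pass the test (adjusted p = 0.262, interval -0.13 to 0.81). E2F7 rose by 0.65 relative to Doxo (SE 0.22, adjusted p = 0.0184) and by 1.14 relative to Doxo+Cyta (SE 0.22, adjusted p = 0.000524). The call relative to Doxo was lost without Doxo 5, Doxo 6 or Doxo+Cyta+DAC 32 (log2 fold changes of 0.59, 0.64 and 0.50, adjusted p = 0.0663, 0.0525 and 0.0647).

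E2F4 (chr16:67192165-67198918), the main pocket protein partner of resting cells, was at 69.1 and 71.3 CPM in NT, 80.6, 54.1 and 52.5 CPM in Doxo, 56.6, 79.1 and 56.0 CPM in Doxo+Cyta and 110, 112, 106 and 99.9 CPM in Doxo+Cyta+DAC. As with E2F1, the higher values within Doxo and Doxo+Cyta were those of Doxo 4 and Doxo+Cyta 20, and these were above NT. E2F4 rose by a log2 fold change of 0.61 relative to NT (SE 0.18, adjusted p = 0.0125), 0.78 relative to Doxo and 0.75 relative to Doxo+Cyta. The call relative to NT was lost without NT 1 (0.58, adjusted p = 0.0935) or NT 2 (0.63, adjusted p = 0.0712).

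E2F6 (chr2:11444375-11466177), the polycomb-associated repressor, was at 46.8 and 51.6 CPM in NT, 57.7, 53.2 and 52.4 CPM in Doxo, 39.1, 43.4 and 43.9 CPM in Doxo+Cyta and 68.5, 84.0, 77.8 and 79.4 CPM in Doxo+Cyta+DAC. The 4 groups did not overlap and followed the same order as for E2F8. E2F6 rose by a log2 fold change of 0.65 relative to NT (SE 0.12, adjusted p = 0.00054), 0.51 relative to Doxo (SE 0.10) and 0.88 relative to Doxo+Cyta (SE 0.10).

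E2F5, which works with p130, was the gene whose levels differed least. It was at 9.98 and 9.95 CPM in NT, 8.94, 9.49 and 11.2 CPM in Doxo, 8.78, 11.7 and 8.98 CPM in Doxo+Cyta and 12.9, 7.91, 13.9 and 11.2 CPM in Doxo+Cyta+DAC. All 4 groups overlapped, and the lowest value of all, in Doxo+Cyta+DAC 31, lay in the group with the highest mean. The log2 fold changes were 0.21 relative to NT (interval -0.21 to 0.62), 0.22 relative to Doxo (interval -0.15 to 0.59) and 0.23 relative to Doxo+Cyta (interval -0.14 to 0.60), with adjusted p from 0.317 to 0.446. These intervals leave room for a rise of up to 0.62 on the log2 scale. Fragments on the exons that E2F5 shares with C8orf59 were left out of the counts.

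The E cyclins, the regulatory subunits of CDK2 at the G1/S boundary, rose to a like extent. CCNE1 (chr19:29811994-29824308) was at 7.56 and 8.34 CPM in NT, 10.4, 4.25 and 3.598 CPM in Doxo, 4.33, 10.3 and 5.62 CPM in Doxo+Cyta and 16.2, 11.7, 18.2 and 19.6 CPM in Doxo+Cyta+DAC. Doxo 4 and Doxo+Cyta 20 were above NT and the other 4 chemotherapy relapses below it, and every Doxo+Cyta+DAC library was higher still. The log2 fold change was 1.05 relative to NT (SE 0.39, adjusted p = 0.0402), 1.44 relative to Doxo (SE 0.35, adjusted p = 0.00296) and 1.28 relative to Doxo+Cyta (SE 0.35, adjusted p = 0.00564). Relative to NT the call was lost when NT 1, NT 2 or Doxo+Cyta+DAC 30, 32 or 33 was left out, with log2 fold changes of 0.97, 1.117, 1.06, 1.00 and 0.95 and adjusted p of 0.192, 0.136, 0.0624, 0.0749 and 0.0806, whereas without Doxo 4 and Doxo+Cyta 20 it was 1.02 with an adjusted p of 0.000613. Those 2 libraries are not in the comparison with NT and act on it only through the shared fit. CCNE2 was at 14.0 and 14.5 CPM in NT, 11.6, 11.2 and 11.7 CPM in Doxo, 12.3, 10.5 and 14.0 CPM in Doxo+Cyta and 24.7, 27.1, 36.4 and 31.2 CPM in Doxo+Cyta+DAC. The libraries without decitabine lay between 10.5 and 14.5 CPM, with Doxo+Cyta 20 the lowest. CCNE2 rose by 1.07 relative to NT (SE 0.17, adjusted p = 0.000239), 1.38 relative to Doxo and 1.28 relative to Doxo+Cyta. Exon fragments that CCNE2 shares with INTS8 were not counted.

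By class, the median log2 fold change relative to NT was 0.84 for the 3 activating factors, 0.61 for the 5 repressive factors and 1.06 for the 2 E cyclins, against 0.02 over all tested genes. Relative to Doxo the medians were 1.53, 0.65 and 1.41, and relative to Doxo+Cyta they were 1.32, 0.88 and 1.28, with medians over all tested genes of -0.01 and 0.00. E2F8 lay among the activating factors in size relative to NT and to Doxo+Cyta, so the classes were not apart in these comparisons. The balance within a library was described as the mean log2 CPM of E2F1 to E2F3 minus that of E2F4 to E2F8, in which library scaling cancels. It was 1.53 ± 0.00 for NT (SD, n = 2), 1.11 ± 0.20 for Doxo (n = 3), 1.46 ± 0.07 for Doxo+Cyta (n = 3) and 1.94 ± 0.15 for Doxo+Cyta+DAC (n = 4). The Doxo+Cyta+DAC libraries, from 1.78 to 2.09, lay above all 8 others, and the Doxo libraries, from 0.94 to 1.33, below all others. Against E2F4, E2F5 and E2F6 alone the difference was 0.94 for NT, 0.52 for Doxo, 0.65 for Doxo+Cyta and 1.44 for Doxo+Cyta+DAC, with the Doxo+Cyta+DAC libraries again the highest. In this form the Doxo libraries were not below all others. Doxo 4, at 0.778, lay above the Doxo+Cyta libraries, which were at 0.525 to 0.736. No test was made on this balance.

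**Figure D3:**
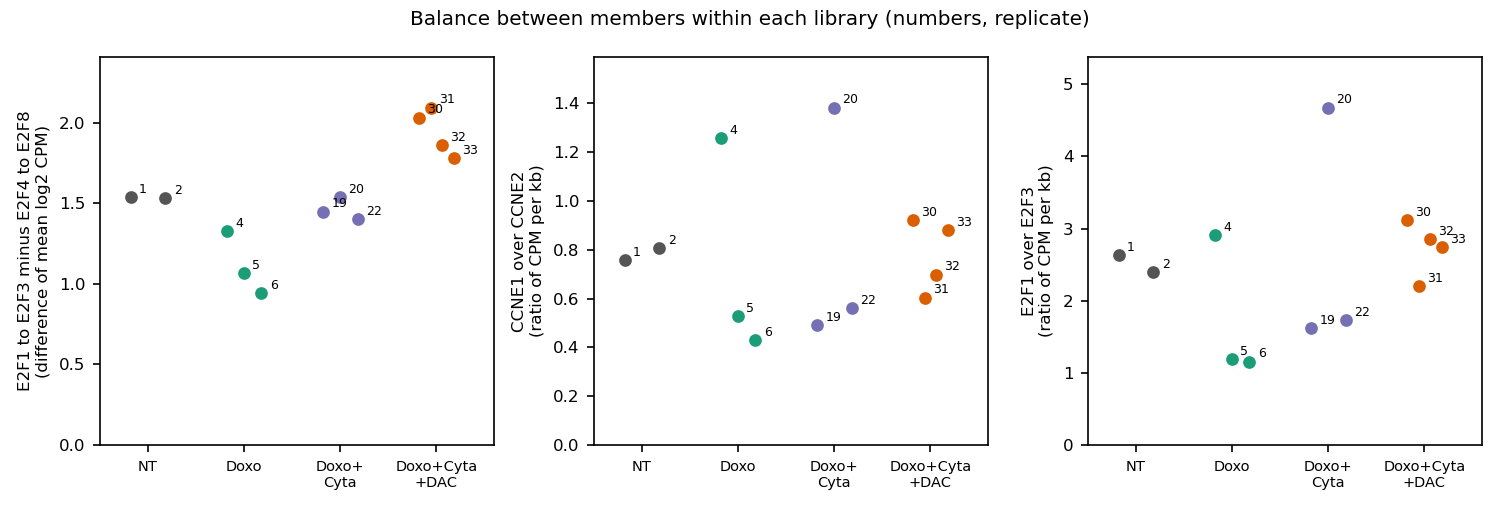
For each library, by group and with its replicate number, the mean log2 CPM of E2F1 to E2F3 minus that of E2F4 to E2F8 (left), and the ratios in CPM per kb of CCNE1 to CCNE2 (middle) and of E2F1 to E2F3 (right). The 4 Doxo+Cyta+DAC libraries are the highest on the left, from 1.78 to 2.09, while Doxo 4 and Doxo+Cyta 20 have the highest CCNE1 to CCNE2 ratios, 1.26 and 1.38.

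The comparison of chemotherapy relapses with NT asks whether regrowth after Doxo or Doxo+Cyta alone altered these genes. With all libraries, none of the 10 genes was called in either direction by edgeR in Doxo relative to NT, where 6.06% of tested genes were higher and 4.63% lower, while 1 gene had an unadjusted p under 0.05 (E2F1, log2 fold change -0.80, interval -1.41 to -0.19, adjusted p = 0.112) and DESeq2 called 0. The libraries did not overlap for E2F1, E2F3, E2F7 and CCNE2 in the lower direction, where 24.5% of tested genes had no overlap, and for E2F6 and E2F8 in the higher, where 24.6% had none. In Doxo+Cyta relative to NT edgeR again called 0 of the 10, against 0.911% of tested genes higher and 0.551% lower, while 3 genes had an unadjusted p under 0.05 (E2F3, E2F7 and E2F8, with log2 fold changes of -0.41, -0.80 and -0.54 and adjusted p of 0.239, 0.114 and 0.12), and DESeq2 called E2F7 (adjusted p = 0.0489). E2F2, E2F3, E2F6, E2F7 and E2F8 did not overlap with NT and were lower, where 19.2% of tested genes were without overlap.

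These counts rested on Doxo 4 and Doxo+Cyta 20. Without both libraries, a choice made after their distance was seen, 4 of the 10 genes fell in Doxo relative to NT, namely E2F1 (log2 fold change -1.34, adjusted p = 7.6e-06), CCNE1 (-1.04, adjusted p = 0.00566), E2F4 (-0.43, adjusted p = 0.00222) and E2F2 (-0.40, adjusted p = 0.00717). In Doxo+Cyta relative to NT 4 genes fell, namely E2F1 (-0.82, adjusted p = 0.000713), E2F8 (-0.52, adjusted p = 0.0275), E2F2 (-0.42, adjusted p = 0.014) and E2F4 (-0.34, adjusted p = 0.0207). The genes called in either direction over the whole table then numbered 5267 and 2037. With all libraries they numbered 1515 and 207, of 14164 tested. Many genes outside the 10 were thus called as well, and whether the 10 stand apart from them was not tested. Leaving out Doxo 4 alone gave the same log2 fold change for E2F1 relative to NT (-1.34, adjusted p = 0.00234). The other calls rested on leaving out both. In Doxo relative to NT, 9 of 10 alternatives left E2F2, E2F4 and CCNE1 uncalled. The same held in Doxo+Cyta relative to NT for E2F1, E2F2, E2F4 and E2F8. All groups share 1 estimate of the spread, so a library left out of any group also alters the other comparisons.

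Between the chemotherapy relapses, Doxo+Cyta relative to Doxo, 1 of the 10 genes changed, against 1.07% of tested genes higher and 2.32% lower. E2F8 fell by 0.84 on the log2 scale (SE 0.16, adjusted p = 0.0117). Its libraries did not overlap, nor did those of E2F6 (log2 fold change -0.37, adjusted p = 0.0846) and E2F7 (-0.49, adjusted p = 0.275), where 10.4% of tested genes had no overlap in the lower direction. The call of E2F8 was lost without Doxo+Cyta 19 (adjusted p = 0.0513) and in a fit of only these 2 groups (adjusted p = 0.0983). E2F1 showed a log2 fold change of 0.31 (interval -0.24 to 0.87), and without Doxo 4 and Doxo+Cyta 20 it was higher in Doxo+Cyta by 0.52 (adjusted p = 0.0107).

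The distance of Doxo 4 and Doxo+Cyta 20 was also seen in ratios between genes within a library. CCNE1 relative to CCNE2, in CPM per kb, was 1.26 in Doxo 4 and 1.38 in Doxo+Cyta 20, 0.43 to 0.56 in the other 4 chemotherapy relapses, 0.76 and 0.81 in NT and 0.60 to 0.92 in Doxo+Cyta+DAC. CCNE1 was the highest of its group in both libraries, and in Doxo+Cyta 20 CCNE2, at 10.5 CPM, was also the lowest of all 12 libraries. E2F1 relative to E2F3 was 2.91 in Doxo 4 and 4.68 in Doxo+Cyta 20, against 1.16 and 1.19 in Doxo 6 and 5, 1.62 and 1.73 in Doxo+Cyta 19 and 22, 2.40 and 2.64 in NT and 2.21 to 3.11 in Doxo+Cyta+DAC. In Doxo+Cyta 20, E2F3 and E2F7 were at their lowest, 32.2 and 4.47 CPM, while E2F1, E2F4 and CCNE1 were at or near NT levels or above.

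The genes around the E2F factors did not move as a block. The dimerization partner DP1 (TFDP1), which E2F1 to E2F6 need for binding to DNA, was at 76.7 and 83.3 CPM in NT, 68.2, 35.5 and 38.0 CPM in Doxo, 38.7, 52.2 and 40.4 CPM in Doxo+Cyta and 162, 159, 174 and 164 CPM in Doxo+Cyta+DAC. The alternative partner DP2 (TFDP2) went the other way, with 198 and 182 CPM in NT, 194, 236 and 234 CPM in Doxo, 232, 215 and 203 CPM in Doxo+Cyta and 104, 110, 102 and 117 CPM in Doxo+Cyta+DAC. TFDP1 rose by log2 fold changes of 1.04, 1.81 and 1.91 relative to NT, Doxo and Doxo+Cyta (adjusted p = 0.00151, 4.81e-06 and 2.42e-06), and TFDP2 fell by 0.81, 1.03 and 1.00 (adjusted p = 5.93e-05, 1.77e-06 and 1.64e-06). The Doxo+Cyta+DAC libraries overlapped no other library for either gene. TFDP1 also fell in Doxo relative to NT (-0.76, adjusted p = 0.0417) and, without Doxo 4 and Doxo+Cyta 20, in Doxo+Cyta relative to NT (-1.04, adjusted p = 0.000142, against -0.87 and 0.0652 with all libraries). The third partner, TFDP3, held a single count in 1 of 12 libraries, under the limit of 3 counts (0.157 to 0.235 CPM), and was not tested.

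The pocket proteins also divided. RBL1 (p107), itself an E2F target, was at 11.2 and 12.4 CPM in NT, 11.7, 8.56 and 7.20 CPM in Doxo, 8.72, 8.14 and 10.1 CPM in Doxo+Cyta and 32.0, 27.0, 31.6 and 29.7 CPM in Doxo+Cyta+DAC. RBL2 (p130), the pocket protein of resting cells, was at 95.1 and 103 CPM in NT, 83.7, 115 and 112 CPM in Doxo, 115, 64.6 and 115 CPM in Doxo+Cyta and 31.1, 35.6, 32.7 and 41.0 CPM in Doxo+Cyta+DAC. RBL1 rose by 1.35, 1.72 and 1.74 relative to NT, Doxo and Doxo+Cyta (adjusted p = 6.82e-05, 1.75e-06 and 1.14e-06) and RBL2 fell by 1.501, 1.56 and 1.49 (adjusted p = 5.75e-05, 9.35e-06 and 1.18e-05), with no overlap for either gene. RB1 fell only relative to Doxo (-0.64, adjusted p = 0.0135, against -0.35 and 0.222 relative to NT and -0.26 and 0.287 relative to Doxo+Cyta), and without Doxo 4 and Doxo+Cyta 20 it also fell relative to NT (-0.37, adjusted p = 0.0045) and Doxo+Cyta (-0.51, adjusted p = 0.000405). The comparison with NT holds neither library and changed only through the shared fit.

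**Figure D4:**
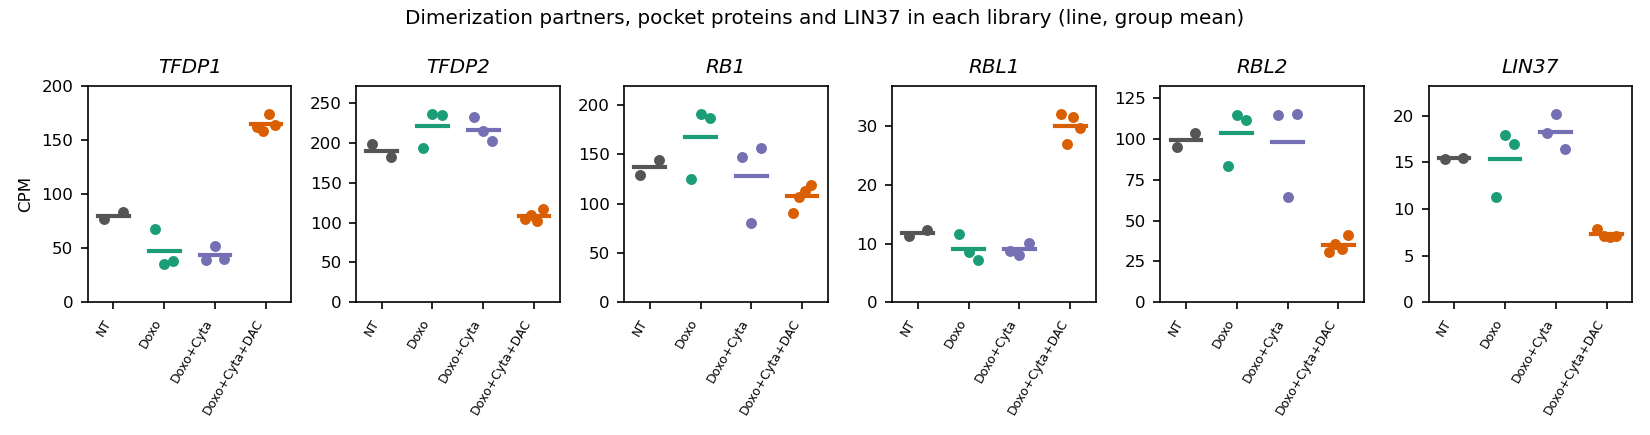
CPM (vertical axes, from 0) of the dimerization partners TFDP1 and TFDP2, the pocket protein genes RB1, RBL1 and RBL2, and LIN37 in each library by group, with group means as lines. TFDP1 and RBL1 are highest and TFDP2, RBL2 and LIN37 lowest in the 4 Doxo+Cyta+DAC libraries.

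The MuvB core joins E2F4 and p130 or p107 in the repressive DREAM complex and B-MYB (MYBL2) and FOXM1 in the activating complexes of late cell cycle. Of these 7 genes, 4 were higher and 1 lower in Doxo+Cyta+DAC relative to NT, and 5 were higher and 1 lower relative to Doxo and to Doxo+Cyta. Of all tested genes, 24.9% were higher and 23.7% lower relative to NT. The shares were 29.1% and 30.4% relative to Doxo, and 29.8% and 30.5% relative to Doxo+Cyta. MYBL2 rose by 0.92, 1.49 and 1.26, FOXM1 by 0.42, 0.71 and 0.85, LIN9 by 0.41, 0.51 and 0.75 and RBBP4 by 0.50, 0.46 and 0.54 relative to NT, Doxo and Doxo+Cyta. LIN52 rose relative to Doxo (1.04) and Doxo+Cyta (1.08), and relative to NT it did not pass the test (0.39, adjusted p = 0.0687). LIN37, the subunit needed for repression by DREAM, fell by 1.08, 1.08 and 1.32 (adjusted p = 0.00023, 5.76e-05 and 8.37e-06), from 15.4 and 15.5 CPM in NT to 7.84, 7.15, 7.03 and 7.13 CPM in Doxo+Cyta+DAC. LIN54 was not called in any of the 6 comparisons (log2 fold changes of -0.20 to 0.28). In Doxo relative to NT, LIN52 was the single gene of the list to fall (-0.65, adjusted p = 0.0329), and without Doxo 4 and Doxo+Cyta 20 MYBL2 (-0.86) and FOXM1 (-0.42) were lower as well, as were LIN52 (-0.67), MYBL2 (-0.54) and FOXM1 (-0.52) in Doxo+Cyta relative to NT.

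Of the 5 genes of the cyclin E kinase, its activating phosphatase and its inhibitors, CDK2 rose by 0.29, 0.42 and 0.53 and the phosphatase CDC25A, an E2F target, by 1.117, 1.14 and 1.67 in Doxo+Cyta+DAC relative to NT, Doxo and Doxo+Cyta. The inhibitor p27 (CDKN1B) fell by 0.95, 0.79 and 1.29 (adjusted p = 0.00313, 0.00394 and 8.04e-05). The inhibitor p57 (CDKN1C) was called lower in all 3 comparisons. It held 0 counts in 4 of 4 Doxo+Cyta+DAC libraries, where the limit is 0.157 to 0.235 CPM, against 9 to 28 counts in Doxo and Doxo+Cyta and 16 and 3 counts in NT, so that no fold is given. The inhibitor p21 (CDKN1A) was at 11.1 and 11.4 CPM in NT, 128, 84.8 and 81.5 CPM in Doxo, 11.9, 46.0 and 13.1 CPM in Doxo+Cyta and 34.5, 91.6, 67.7 and 49.7 CPM in Doxo+Cyta+DAC. It was higher in Doxo relative to NT (3.13, adjusted p = 0.0054), and Doxo+Cyta+DAC exceeded NT by 2.44 (adjusted p = 0.00189) and Doxo+Cyta by 1.37 (adjusted p = 0.0124). CDKN1A (-2.06, adjusted p = 0.0251) and CDC25A (-0.53, adjusted p = 0.0454) were lower in Doxo+Cyta relative to Doxo.

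Among 9 genes of ubiquitin ligases that act on E cyclins or E2F1, 4 were higher and 1 lower relative to NT, and 5 higher and 1 lower relative to Doxo and Doxo+Cyta. Of all tested genes, 24.9% were higher and 23.7% lower relative to NT. The shares were 29.1% and 30.4% relative to Doxo, and 29.8% and 30.5% relative to Doxo+Cyta. Whether the list stands apart from these shares was not tested. CUL3, the scaffold of a ligase for free cyclin E, rose by 0.99, 0.59 and 0.95, RBX1 by 0.75, 0.88 and 0.71, SKP1 by 0.60, 0.45 and 0.54 and CUL1 by 0.35, 0.46 and 0.55 relative to NT, Doxo and Doxo+Cyta. SKP2 was higher relative to Doxo (0.54) and Doxo+Cyta (0.37), FZR1 was lower in the same comparisons (-0.54 and -0.38) and CCNF was lower relative to NT (-0.30). FBXW7, the receptor for phosphorylated cyclin E, and CKS1B were not called in any comparison, with log2 fold changes of -0.15 to 0.18 and -0.08 to 0.19. In Doxo relative to NT, CUL3 (0.40) and FZR1 (0.43) were higher and SKP2 (-0.56) lower.

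E2F6 acts in a polycomb complex, and of 10 genes for its partners 5 were higher and 1 lower relative to NT, 5 higher and 2 lower relative to Doxo and 6 higher and 2 lower relative to Doxo+Cyta. Of all tested genes, 24.9%, 29.1% and 29.8% were higher and 23.7%, 30.4% and 30.5% lower in these comparisons. Whether the partners stand apart from these shares was not tested. L3MBTL2 (1.01, 1.34 and 1.32), WDR5 (0.86, 0.96 and 1.14), PCGF6 (0.54, 0.94 and 0.90) and CBX3 (0.44, 0.45 and 0.56) rose in all 3, and MAX, the dimer partner of MGA, fell in all 3 (-0.32, -0.51 and -0.54). MGA rose relative to Doxo and Doxo+Cyta (0.43 and 0.64), YAF2 fell in the same comparisons (-0.52 and -0.59), and RYBP rose relative to NT and Doxo+Cyta (0.58 and 0.47). RING1 and RNF2 did not pass the test with all libraries. Without Doxo 4 and Doxo+Cyta 20, RING1 was higher relative to Doxo and Doxo+Cyta (0.25 and 0.30) and RNF2 lower relative to Doxo (-0.56). Between the groups without decitabine, edgeR and DESeq2 called 0 of the 10 with all libraries (3, 0 and 0 had an unadjusted p under 0.05 in Doxo relative to NT, Doxo+Cyta relative to NT and Doxo+Cyta relative to Doxo). When Doxo 4 and Doxo+Cyta 20 were left out, 2 were higher and 3 lower in Doxo and 1 was lower in Doxo+Cyta relative to NT. Far more genes of the whole table were then called too, as given above. Whether the partners stand apart from them was not tested.

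Downstream, the genes of DNA replication and nucleotide synthesis that E2F factors switch on at G1/S were higher in Doxo+Cyta+DAC. Of 50 such genes, 37 were higher and 1 lower relative to NT (median log2 fold change 0.71), 45 higher and 2 lower relative to Doxo (median 1.17) and 44 higher and 2 lower relative to Doxo+Cyta (median 1.02). Of all tested genes, 24.9%, 29.1% and 29.8% were higher and 23.7%, 30.4% and 30.5% lower in these comparisons. Their summed level was 5924 and 6000 CPM in NT, 5601, 4340 and 4461 CPM in Doxo, 4869, 5591 and 4762 CPM in Doxo+Cyta and 9258, 9315, 9463 and 9205 CPM in Doxo+Cyta+DAC. The 4 Doxo+Cyta+DAC values lay within a narrow range above all others, and Doxo 4 and Doxo+Cyta 20 were the nearest to NT among the chemotherapy relapses. CDC6, which loads the replicative helicase, rose by 1.53 relative to NT (SE 0.19, adjusted p = 3.35e-05), MSH6, a mismatch repair gene, by 0.78 relative to NT (adjusted p = 6.07e-05), MCM10 by 2.04 relative to Doxo and 2.07 relative to Doxo+Cyta, POLA1, the catalytic subunit of DNA polymerase alpha, by 1.93 relative to Doxo and CLSPN by 2.42 relative to Doxo+Cyta. CDT1, the partner of CDC6 in loading the helicase, went the other way and fell by 0.54, 0.49 and 0.84 relative to NT, Doxo and Doxo+Cyta (adjusted p = 0.00177, 0.00108 and 1.15e-05). Cyclin A2 (CCNA2) was lower relative to Doxo (-0.38) and CDKN2C relative to Doxo+Cyta (-0.36). In Doxo relative to NT 12 of the 50 fell and 0 rose (median -0.44), led by MCM10 (-0.85, adjusted p = 0.00728) and CDCA7 (-0.79, adjusted p = 0.00771), and in Doxo+Cyta relative to NT MCM10 (-0.89) and BRCA1 (-0.82) fell. The shares of tested genes were 4.63% lower and 6.06% higher in Doxo, and 0.551% lower and 0.911% higher in Doxo+Cyta. Without Doxo 4 and Doxo+Cyta 20 the counts among the 50 became 38 lower and 1 higher in Doxo and 32 lower in Doxo+Cyta. Far more genes of the whole table were then called too, as given above, and the list was not tested against them. Leaving out NT 1 or NT 2 left 0 of the 50 called by edgeR in either of these comparisons, leaving out Doxo 5 or Doxo 6 left 2 lower in Doxo, and leaving out Doxo+Cyta 19 or 22 left 0 in Doxo+Cyta. DESeq2 called 17 and 6 lower with all libraries. In Doxo+Cyta+DAC relative to NT, 30 and 26 of the 50 were higher without NT 1 and without NT 2. Between Doxo+Cyta and Doxo 0 of the 50 were called by edgeR with all libraries, 6 had an unadjusted p under 0.05 and 2 were higher by DESeq2, against 13 higher and 2 lower without Doxo 4 and Doxo+Cyta 20. There 1.07% of tested genes were higher and 2.32% lower with all libraries, and more were called without both.

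The genes of G2 and mitosis did not follow. Of 30 such genes, 1 was higher and 11 lower in Doxo+Cyta+DAC relative to NT (median -0.21), 3 higher and 18 lower relative to Doxo (median -0.27) and 7 higher and 12 lower relative to Doxo+Cyta (median -0.14). Of all tested genes, 24.9%, 29.1% and 29.8% were higher and 23.7%, 30.4% and 30.5% lower in these comparisons. Whether the list stands apart from these shares was not tested. Their summed level was 5982 and 6194 CPM in NT, 5642, 6240 and 6420 CPM in Doxo, 5567, 4943 and 5661 CPM in Doxo+Cyta and 4924, 4735, 4599 and 5004 CPM in Doxo+Cyta+DAC. BUB1, a kinase of the spindle checkpoint, fell by 1.37, 1.29 and 1.22 relative to NT, Doxo and Doxo+Cyta, NUF2 by 0.67 relative to NT, UBE2C by 0.89 relative to Doxo and CCNB2 by 0.62 relative to Doxo+Cyta. NDC80 (0.28 relative to NT), BUB1B and CCNB1 (0.33 and 0.26 relative to Doxo) and KIF11 and CCNB1 (0.52 and 0.42 relative to Doxo+Cyta) were higher. The count relative to NT was 3 lower and 0 higher without NT 1 and likewise without NT 2, and relative to Doxo it was 10 lower without Doxo 5 and 11 lower without Doxo 6, with 0 higher in both. Leaving out Doxo+Cyta 19, Doxo+Cyta+DAC 32 or Doxo+Cyta+DAC 33 left 7, 8 and 8 lower relative to Doxo+Cyta. In Doxo relative to NT UBE2C was higher (0.67, adjusted p = 0.0125), in Doxo+Cyta relative to NT MKI67 (-0.65) and CENPF (-0.52) were lower, and in Doxo+Cyta relative to Doxo 3 were lower, CDCA8 (-0.47) and MKI67 (-0.55) first. The shares of tested genes in these directions were 6.06%, 0.551% and 2.32%. E2F cores were found in 27 of 42 G1/S promoters in the table (64.3%) and in 6 of 25 G2/M promoters (24%), and TTTGAA in 1 of 42 (2.38%) and 18 of 25 (72%). Among promoters of tested genes, 20.2% held an E2F core and 9.79% held TTTGAA, so the G2/M share of cores was near that of tested genes.

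**Figure D5:**
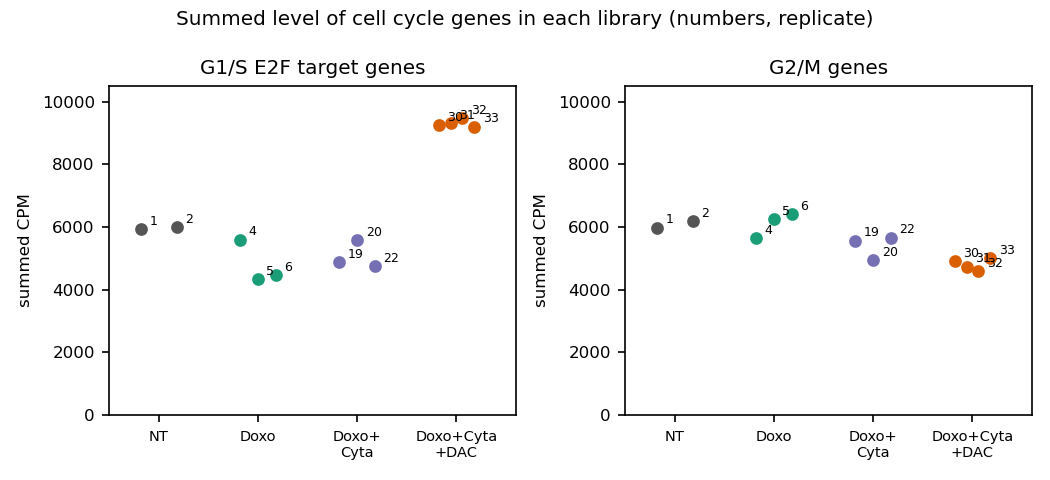
Summed CPM (vertical axes, from 0) of 50 G1/S genes (left) and 30 G2/M genes (right) in each library by group, with replicate numbers. The 4 Doxo+Cyta+DAC libraries lie at 9205 to 9463 CPM on the left, above all others, and at 4599 to 5004 CPM on the right, where Doxo+Cyta 20, at 4943 CPM, falls among them.

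Among apoptosis genes that E2F1 can activate, APAF1, BBC3, BCL2L11, PMAIP1 and TP73 were not called higher in Doxo+Cyta+DAC in any of the 3 comparisons. APAF1, the core of the apoptosome, fell by 1.47, 1.53 and 1.21, and BBC3 (PUMA) fell by 1.59 and 1.07 relative to Doxo and Doxo+Cyta (adjusted p = 5.19e-06 and 0.000124) and was at -0.33 relative to NT (adjusted p = 0.182). BCL2L11 was lower relative to NT (-0.31) and PMAIP1 relative to Doxo (-0.38), and TP73 was not called (0.69 relative to NT, adjusted p = 0.259). In Doxo relative to NT, BBC3 rose by 1.26 (adjusted p = 0.00449), and in Doxo+Cyta relative to Doxo PMAIP1 fell (-0.68, adjusted p = 0.0414).

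As a description of likeness, the tested genes outside the 10 with the highest Pearson correlation of log2 CPM over the 12 libraries were found for each gene. The libraries fall into groups, so these values largely follow the group levels, and no p is given. They were SCRIB and RECQL4 for E2F1 (r = 0.99 for each), NCL and FTSJ3 for E2F2 (1.00 for each), VPRBP and RNASEH1 for E2F3 (0.99 for each), PUS1 and KRI1 for E2F4 (0.99 for each) and MAPRE1 and EIF5 for E2F6 (0.99 and 0.98). For the rest they were OPA1 and HAUS6 for E2F7 (0.96 and 0.95), ZNF689 and ZNF189 for E2F8 (0.99 for each), PHGDH and PDAP1 for CCNE1 (0.98 and 0.97) and CHD4 and ENOPH1 for CCNE2 (0.99 and 0.98). E2F5 had the lowest values, with 0.88 for ELFN1-AS1 and 0.84 for GPX7.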

How the data were processed

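RNA of 12 HEL samples was sequenced as paired-end TruSeq libraries. Per the submitters' processing notes and the methods, the authors aligned the reads to GRCh38 with Bowtie2 2.2.8, which does not splice, and the values deposited are gene-level counts of fragments from featureCounts 1.6.0, unstranded and without normalization, with fragments over several genes left out. Of 26485 genes, 4 that lacked a count were left out. Samples were grouped by their labels. The counts were fitted with edgeR 4.0.16 in R 4.3.3 (filterByExpr, TMM, quasi-likelihood test, two-sided, all 12 samples in 1 fit, no covariate), with Benjamini-Hochberg adjustment over 14164 genes in each of 6 comparisons. The threshold for a call was an adjusted p of 0.05. CPM use TMM sizes and log2 CPM a prior count of 2. Levels per kb use the exon lengths of the table. Intervals are approximate 95% intervals from the SE. The script was tested on simulated data. Figures used Python 3.11.15 and matplotlib 3.10.9.

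The 10 genes and the lists were chosen with earlier results of these data known. The genes named were the 10, every gene of the lists of 10 or fewer except some that are not reported here, the 2 genes per direction with the smallest adjusted p in the G1/S and G2/M lists, and the 2 most correlated genes. Limits of 3 counts cover counting error only. Promoter windows came from RefSeq (GRCh38.p14). Alternatives were RLE scaling, no filter on low counts, DESeq2 1.42.0, a fit of the compared groups alone, the thresholds of the study's methods (a fold change beyond 1 on the natural log scale), leaving out each library, and, chosen after the data were seen, leaving out Doxo 4 and Doxo+Cyta 20.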

Additional observations from a re-analysis of the deposited data

How the results depend on the processing

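Of 660 results for single genes under the alternatives, 612 kept direction and side of the threshold, 14 passed it only there, 17 lost it and 17 changed sign, all of the last in results that were not called. Where an NT sample was left out, the remaining NT sample was assumed to vary like the other groups. With the thresholds of the methods, the members called were 0 relative to NT, 3 relative to Doxo (E2F1, E2F2 and CCNE1) and 2 relative to Doxo+Cyta (E2F2 and E2F8) in Doxo+Cyta+DAC, with 1321, 1651 and 1753 genes in all, and the genes called relative to NT numbered 277 for Doxo and 48 for Doxo+Cyta, and 41, with 0 members, between these relapses. Without the filter, 1 member (E2F1, -0.85, adjusted p = 0.042) was called in Doxo relative to NT, and 358 genes in Doxo+Cyta relative to NT. DESeq2 called 1 member and 835 genes in Doxo+Cyta relative to NT and 2 members (E2F8 and E2F6) and 933 genes in Doxo+Cyta relative to Doxo, where fits of only the compared groups called 13 genes and 67 genes with 0 members, respectively. Without Doxo 4 and Doxo+Cyta 20, 4 members and 5267 genes were called for Doxo relative to NT, 4 members and 2037 genes for Doxo+Cyta relative to NT, and 2 members and 1261 genes between these groups. Leaving out each library gave 0 to 1 members and 81 to 3137 genes for Doxo relative to NT, 0 to 226 genes for Doxo+Cyta relative to NT, 4 to 8 members and 4461 to 6596 genes for Doxo+Cyta+DAC relative to NT, and 0 to 2 members and 130 to 877 genes for Doxo+Cyta relative to Doxo. The signs that changed, as log2 fold changes over the fits that leave out 1 library, were those of E2F5 relative to NT in Doxo (-0.137 to 0.025, and 0.025 without both libraries) and for Doxo+Cyta (-0.187 to 0.039), and in Doxo+Cyta relative to Doxo those of E2F2 (-0.269 to 0.082), E2F3 (-0.275 to 0.039, and 0.006 without both), E2F4 (-0.14 to 0.276), E2F5 (-0.149 to 0.1, and 0.000 without the filter) and CCNE1 (-0.271 to 0.791). The difference of the activating and the repressive factors was 1.54 in NT with a prior count of 0.5, and against E2F4 to E2F6 alone it was 0.94 for NT, 0.52 for Doxo, 0.65 for Doxo+Cyta and 1.44 for Doxo+Cyta+DAC. Where no value shows it, the cause was not tested. No paired analysis was possible because the groups share no replicate numbers. CCNE1, E2F7, E2F8 and E2F5 had as few as 57 to 115 counts in a library, which limits their precision, and NT had only 2 libraries.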
